A study of Mus musculus with 4 samples.

Results

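Pancreatic polypeptide (PP) cells of mouse islets were described in 4 single-cell libraries, 2 from islets labelled Sin3A mutant and 2 from islets labelled WT. They were chosen by a rule on hormone messages. A barcode needed 500 counts or more, 250 genes or more and no more than 25% of counts from mitochondrial genes, with Ppy at 1% or more of the counts and above each of Gcg, Sst and the sum of Ins1 and Ins2. The rule found 96 cells among 6566 kept barcodes. Droplets (inDrop) captured single cells and tagged the 3′ ends of their messenger RNAs, so that a count stands for a tagged message and no division by gene length is needed.

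The titles carry one of 2 numbers, and each genotype has a library with each; the library of the lower number is called A here and that of the higher number B. The series describes them as biological replicates of primary islet cells. The meaning of the numbers, the mutant allele, any Cre driver and the age and sex of the mice remain not given in the sources used here. Runs of 4 values below follow the order mutant A, WT A, mutant B, WT B. The rule found 22, 28, 24 and 22 PP cells, and these held 175036, 237362, 124008 and 158846 counts. Median counts per PP cell were 8070, 8067, 4998.5 and 5702, so the A libraries were deeper than the B libraries in both genotypes.

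PP cells are a minor endocrine cell type of the islet and lie mostly in the part of the pancreas next to the duodenum. Their hormone, pancreatic polypeptide, belongs to a family with peptide YY and neuropeptide Y, and it acts through the receptor Npy4r to lower food intake and pancreatic secretion, while peptide YY is best known as a gut hormone. Sin3A, the protein whose gene gives the mutant its name, is the scaffold of a complex that carries histone deacetylases to genes.

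Ppy and Pyy are neighbours on mouse chromosome 11 (GRCm38.p6, RefSeq). Ppy spans 102099931 to 102101319 and Pyy spans 102106676 to 102107832, both on the minus strand with 5356 bases between them. The 120 bases before each start site are shown because these 2 messages dominate the cells described here, with TATAA in capitals.
Ppy, chr11:102101320-102101439, minus strand: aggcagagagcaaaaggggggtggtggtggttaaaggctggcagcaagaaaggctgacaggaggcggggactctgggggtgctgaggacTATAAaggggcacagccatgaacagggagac
Pyy, chr11:102107833-102107952, minus strand: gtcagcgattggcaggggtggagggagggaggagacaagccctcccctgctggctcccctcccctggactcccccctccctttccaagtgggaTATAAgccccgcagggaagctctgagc
TATAA was searched on both strands and occurred 1 time in each window, 31 bases before the start of Ppy and 27 bases before the start of Pyy. Of 27025 promoter windows of this length, 3342 (12.4%) held it on either strand. A match is a description of the letters only.

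Pyy, which the rule did not use, was the leading hormone message of these cells. Every PP cell held Pyy at 1% or more of its counts, and Pyy was above Ppy in 20 of 22, 27 of 28, 23 of 24 and 21 of 22 cells. The median share of Pyy was 13.5%, 12.8%, 10.2% and 12.8% of a cell's counts. Ppy had medians of 6.10%, 3.74%, 2.97% and 5.25%, values that the rule holds above 1%. Together the Ppy and Pyy messages reached 38.8% of the counts of the richest cell, in mutant A. Across the cells of a library Ppy and Pyy had Spearman correlations of 0.31, -0.11, -0.02 and 0.41, given as a description over 22 to 28 cells that share a library and whose shares compete for the same total.

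**Figure D1:**
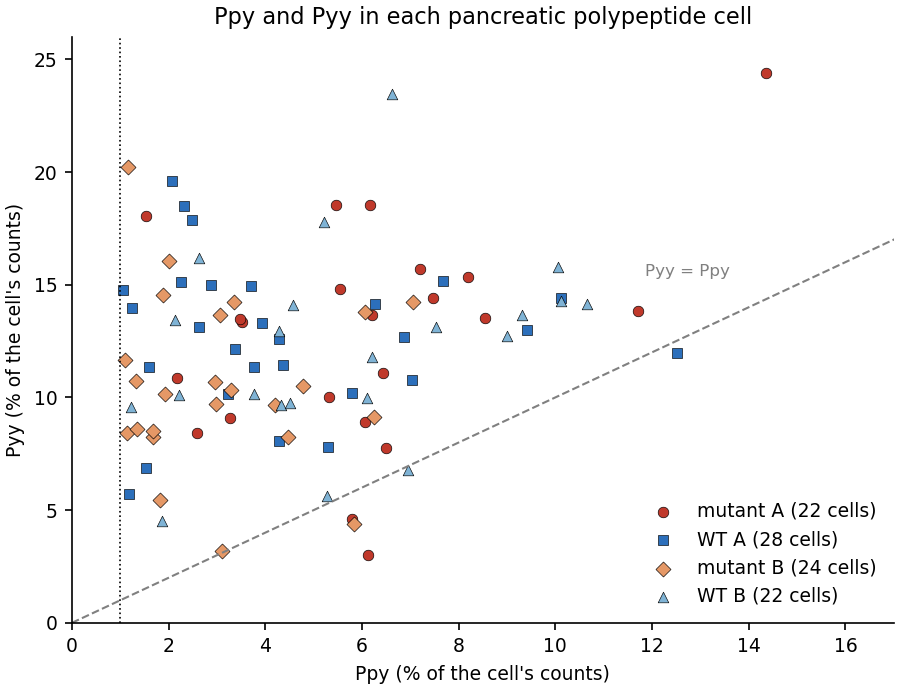
Share of Ppy (x axis) and Pyy (y axis) in each PP cell, in percent of the cell's counts, with 1 point per cell and 1 marker per library. The dotted line is the 1% limit of the rule and the dashed line marks equal shares: 91 of 96 cells lie above it.

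Other hormones were low in most PP cells, as the rule favours. Gcg, Sst and the insulins were each under 1% in 81 of 96 cells. Gcg reached 1% in 4, 1, 0 and 4 cells, Sst in 2, 1, 0 and 2, and insulin in 1, 1, 1 and 0. The count of 0 of 24 in mutant B allows a share of up to 12.5%, taking 3 cells of the total as the limit for a count of 0. Just inside the rule, the lowest Ppy shares were 1.54%, 1.06%, 1.10% and 1.23%. Just outside it, among cells in which Ppy was still the highest of the 4 hormones, the highest share was 0.925% in WT A, 0.976% in mutant B and 0.352% in WT B, and mutant A had no such cell. A further 37, 25, 22 and 52 cells held 1% or more of Ppy but more of another hormone, which was Gcg in 58, Sst in 43 and insulin in 35. Scrublet, a doublet caller, marked 40 of the 6566 barcodes (0.609%) and none of the 96 PP cells. Pairs of libraries shared 10 to 39 kept barcode names, and 0 of them were PP cells.

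PP cells were set against alpha, beta and delta cells of the same libraries. These were barcodes with Gcg, insulin or Sst at 2% or more of the counts and above the other 3 hormones: 1239 alpha, 3153 beta and 290 delta cells. Counts were summed per library and class, and the 5 hormone genes of the rule were left out of sums and tests. Levels below are CPM, the usual scaling of counts to a common total, here the total outside those 5 genes, and 1 count in the PP sum of a library equals 6.18, 4.42, 8.33 and 6.88 CPM. The 3 comparisons share the PP sums.

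Pyy took 12.2%, 12.8%, 10.3% and 12.0% of all counts of the PP sums. It took 5.62%, 5.83%, 3.86% and 6.61% in delta cells and 1.26%, 1.10%, 1.47% and 1.56% in alpha cells, with 0.385%, 0.954%, 0.510% and 0.102% in beta cells. The order PP, delta, alpha, beta was the same in all 4 libraries. In cells with stromal markers, which should lack Pyy, the message took 0.0109%, 0.0294%, 0.0388% and 0.0298% at median depths of 4040.5, 4623.5, 2593 and 4006 counts. Pyy was higher in PP cells than in alpha cells (log2 difference 3.05 ± 0.36 SE, adjusted p = 5.2e-06) and than in beta cells (4.57 ± 0.39 SE, adjusted p = 6.9e-09). Against delta cells it was 1.06 ± 0.34 SE higher on the log2 scale with an adjusted p of 0.090, which misses the threshold of 0.05, and it passed without WT B (adjusted p = 0.0010). Of the rest of the peptide family, Npy was at 18.5, 8.85, 8.33 and 20.6 CPM in PP cells against 444 to 994 CPM in beta cells. Npy1r, Npy2r, Npy4r, Npy5r and Npy6r were below the filter on low counts and were not tested.

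**Figure D2:**
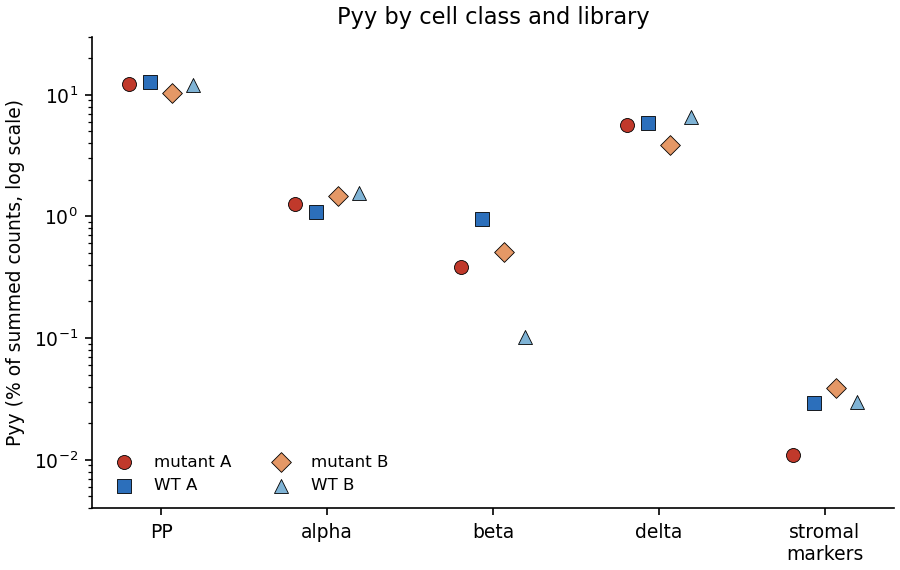
Pyy as a percent of all counts summed per library and cell class (log axis), with 1 point per library. PP cells lie at 10.3% to 12.8%, delta cells at 3.86% to 6.61%, and cells with stromal markers under 0.04%.

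Of 10617 genes tested, 196 were higher in PP than in alpha cells (1.85%) and 170 lower (1.6%). Against beta cells 569 were higher (5.36%) and 774 lower (7.29%), and against delta cells 134 were higher (1.26%) and 202 lower (1.9%). The split depended on the scaling: calls toward PP made up 53.6% against alpha, 42.4% against beta and 39.9% against delta cells, and 69.6%, 54.7% and 53.8% with DESeq2. With RLE size factors they made up 64% against alpha cells.

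Genes of other islet cell types gave PP cells a mixed profile, with little of the alpha genes Irx1, Irx2 and Ttr and a level of Pdx1 between those of alpha and delta cells. Of the 13 tested genes on an alpha cell list, 7 were lower in PP than in alpha cells and none was higher, with a median log2 difference of -1.28, beside -0.09 over all genes. Irx1, a homeobox gene of alpha cells, had 37.1, 17.7, 0 and 6.88 CPM in PP cells and 409.6 to 538 CPM in alpha cells. Its partner Irx2 had 8.85 to 75.7 CPM in PP cells and 234 to 419.9 CPM in alpha cells. Ttr, the thyroxine carrier, had 383, 133, 75.0 and 447 CPM in PP cells against 6862, 3746, 1489 and 2984 CPM in alpha cells. The log2 differences of these 3 genes from alpha cells were -4.72 ± 0.43, -3.23 ± 0.35 and -3.68 ± 0.35 SE. Without mutant A the difference of Irx1 was -5.50 and without WT B that of Irx2 was -3.97.

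Of 14 tested beta cell genes, 13 were lower in PP than in beta cells, with a median log2 difference of -2.90, beside -0.07 over all genes. Slc2a2, the main glucose transporter of rodent beta cells, had 0, 4.42, 49.99 and 27.5 CPM in PP cells and 749.7 to 868 CPM in beta cells (log2 -5.52 ± 0.56 SE, and -6.35 without mutant B). Against alpha cells 3 of the same 14 genes were higher in PP cells, namely Pdx1, Nkx6-1 and Iapp, and Slc30a8 was lower. Pdx1, a pancreas factor that beta and delta cells keep, had 49.5, 31.0, 16.7 and 34.4 CPM in PP cells. Alpha cells held 4.58 to 8.06 CPM, delta cells 50.6 to 148 CPM and beta cells 71.2 to 270.4 CPM, so that PP cells lay between alpha and delta cells in all 4 libraries. Nkx6-1, a repressor known from beta cells, had 266, 420.2, 242 and 165 CPM in PP cells and 42.8 to 160.5 CPM in alpha cells, and its log2 difference was 1.76 ± 0.30 SE (adjusted p = 0.00059). For Pdx1 the difference from alpha cells was 2.12 ± 0.42 SE (adjusted p = 0.0031). Without WT A the call of Pdx1 against delta cells (-1.59 ± 0.32 SE) ended, with an adjusted p of 0.12, and without mutant A its adjusted p against alpha cells was 0.0504.

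Delta cell genes were low: 6 of 9 tested were lower in PP than in delta cells and none higher, with a median log2 difference of -2.31, beside -0.08 over all genes. Hhex, the factor that maintains delta cells, had 43.3, 4.42, 0 and 34.4 CPM in PP cells and 438 to 1104 CPM in delta cells. Cd24a had 16.7 to 129.8 CPM in PP cells and 1739 to 2928 CPM in delta cells. A separate list of pan-endocrine transcription factors had 16 tested members. Against delta cells 4 of them were higher (Pax6, Nkx2-2, Fev and Foxa2) and 1 was lower, Neurog3. The median log2 difference of the 16 was -0.38, beside -0.08 over all genes. The calls of the 4 higher genes ended in 3 to 7 of 15 alternatives, and that of Neurog3 held in all 15. Neurog3, the transient factor of endocrine progenitors, had 6.18, 17.7, 0 and 6.88 CPM in PP cells and 87.5 to 117 CPM in delta cells (log2 -3.60 ± 0.62 SE, adjusted p = 0.00089, and -4.51 without WT A). Without mutant A the difference of Hhex was -6.00.

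**Figure D3:**
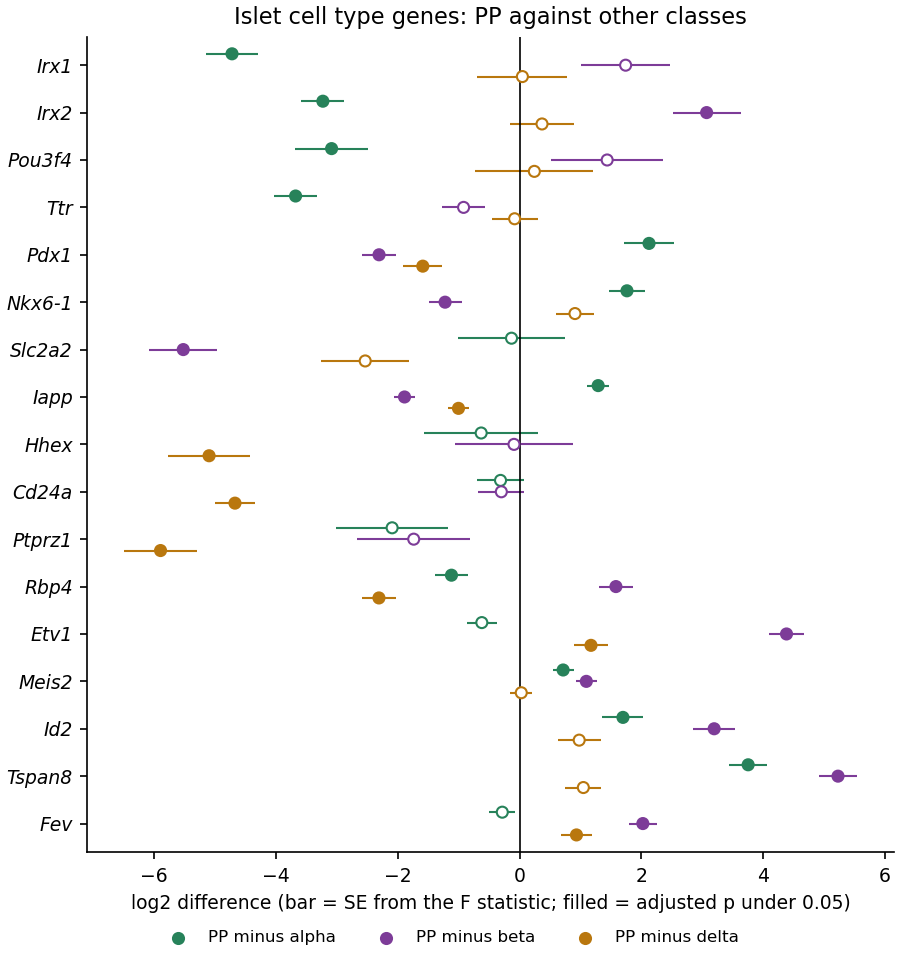
Log2 differences of PP cells from alpha, beta and delta cells for genes of islet cell types, with 1 row per gene and bars of 1 SE. Filled points passed an adjusted p of 0.05: Irx1, Irx2 and Ttr were lower and Pdx1 and Nkx6-1 higher against alpha cells.

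A list of genes reported for human PP cells had 9 tested members. Against alpha cells 5 were higher and none lower, against beta cells 5 were higher and 2 lower (Id4 and Spock1), and against delta cells 1 was higher. Of all tested genes 1.85%, 5.36% and 1.26% were higher against these classes. The median log2 differences of the list were 0.71, 1.09 and 0.03, beside -0.09, -0.07 and -0.08 over all genes. The 5 against alpha cells were Pyy, Meis2, Id2, Spock1 and Tspan8, and the call of Meis2 ended in 5 of 15 alternatives. Etv1, an ETS factor, had 396, 159, 267 and 502 CPM in PP cells, 354 to 654 CPM in alpha cells and 118 to 188 CPM in delta cells, with 10.5 to 32.0 CPM in beta cells. It was not called against alpha cells (-0.62 ± 0.24 SE, adjusted p = 0.19), and its call against delta cells (1.17 ± 0.28 SE) ended without mutant B (adjusted p = 0.058) and without WT B (0.081). Tspan8, a tetraspanin of the cell surface, had 544, 283, 199.9 and 529.6 CPM in PP cells against 11.4 to 52.4 CPM in alpha cells. Its differences from alpha and beta cells were 3.75 ± 0.31 and 5.23 ± 0.31 SE. Id2, which keeps helix-loop-helix factors from binding DNA, had 55.6, 181, 108 and 199 CPM in PP cells and 25.2 to 81.9 CPM in alpha cells (1.70 ± 0.34 SE). That call ended without WT A (adjusted p = 0.093) and without WT B (0.069). Neither Tspan8 nor Id2 was called against delta cells.

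Genes that passed against all 3 classes in the same direction numbered 30 on the higher side (0.283% of those tested) and 21 on the lower side (0.198%). The 30 include Bcl7c, RP23-127M7.1, Coq3, AW554918, Mrpl13 and Wdr59, whose counts are set beside those of Pyy further on, and the part of Pyy reads in these 6 calls was not tested. On the higher side Cd9, Calb1, Mc4r and Scin were above all 12 sums of the other classes in each of the 4 libraries. Gcnt1, Rcn3, Serpina7 and Hdac9, taken up below, were so too. The share of all tested genes separated in this way was not counted, on either side. Cd9, another tetraspanin, had 569, 460.0, 308 and 371 CPM in PP cells, 136 to 189 CPM in alpha, 19.5 to 33.3 CPM in beta and 58.3 to 175 CPM in delta cells. The smallest of its log2 differences was 1.51 ± 0.20 SE, against alpha cells (adjusted p = 3.0e-05). Calb1, the calcium buffer calbindin, had 161, 257, 475 and 220.1 CPM in PP cells and 95.9 to 133 CPM in alpha cells (1.32 ± 0.24 SE, adjusted p = 0.0014). Both genes kept their 3 calls under each of the 15 alternatives.

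Mc4r, a melanocortin receptor best known from neurons that control feeding, had 55.6, 92.9, 41.7 and 48.1 CPM in PP cells. Alpha cells had 6.71 to 22.9 CPM, delta cells 4.38 to 16.5 CPM and beta cells 0.568 to 2.11 CPM of it. Its log2 differences were 2.12 ± 0.39, 2.67 ± 0.48 and 5.62 ± 0.45 SE, and the call against alpha cells ended without WT A (adjusted p = 0.057). Cells with Ppy at 5% or more numbered only 16, 9, 4 and 12, and their sums held 129865, 48666, 17197 and 94444 counts. Among these cells Mc4r was called against beta cells only (adjusted p = 0.29 against alpha and 0.19 against delta cells). Scin, the actin-severing protein scinderin, had 80.4, 66.3, 99.97 and 68.8 CPM in PP cells and 16.7 to 21.2 CPM in alpha cells (2.05 ± 0.45 SE). The difference of Scin from alpha cells had an adjusted p of 0.0086, which became 0.074 without WT A and lay just over the threshold without mutant B. Among cells with Ppy at 5% or more that adjusted p was 0.12. Gcnt1, a glycan-branching enzyme, had 27.5 to 66.6 CPM in PP cells and 4.17 to 17.8 CPM in the 12 other sums, and its call against delta cells (adjusted p = 0.0056) ended without mutant B (0.056).

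Ghrl, the ghrelin gene that marks epsilon cells, had 809.8, 341, 75.0 and 268 CPM in PP cells, 66.3 to 251 CPM in alpha, 3.04 to 156 CPM in delta and 1.70 to 19.2 CPM in beta cells. The difference from alpha cells was 1.30 ± 0.34 SE (adjusted p = 0.029). It was not called with DESeq2 (0.29), without mutant A (0.21), without WT A (0.092) or without WT B (0.088). Among cells with Ppy at 5% or more it was not called either (0.30). After thinning each cell to 2000 counts, which left out 9 of 96 PP cells, 4 of 18, 5 of 24, 2 of 24 and 7 of 21 PP cells held a Ghrl count. The median PP cell held no Ghrl count in any library before thinning, the highest share in a cell was 0.672%, and 5, 2, 0 and 1 cells reached 0.1%. After thinning, 20.7% of PP cells held a count, against 8.80% of alpha, 4.03% of delta and 0.644% of beta cells thinned alike.

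**Figure D4:**
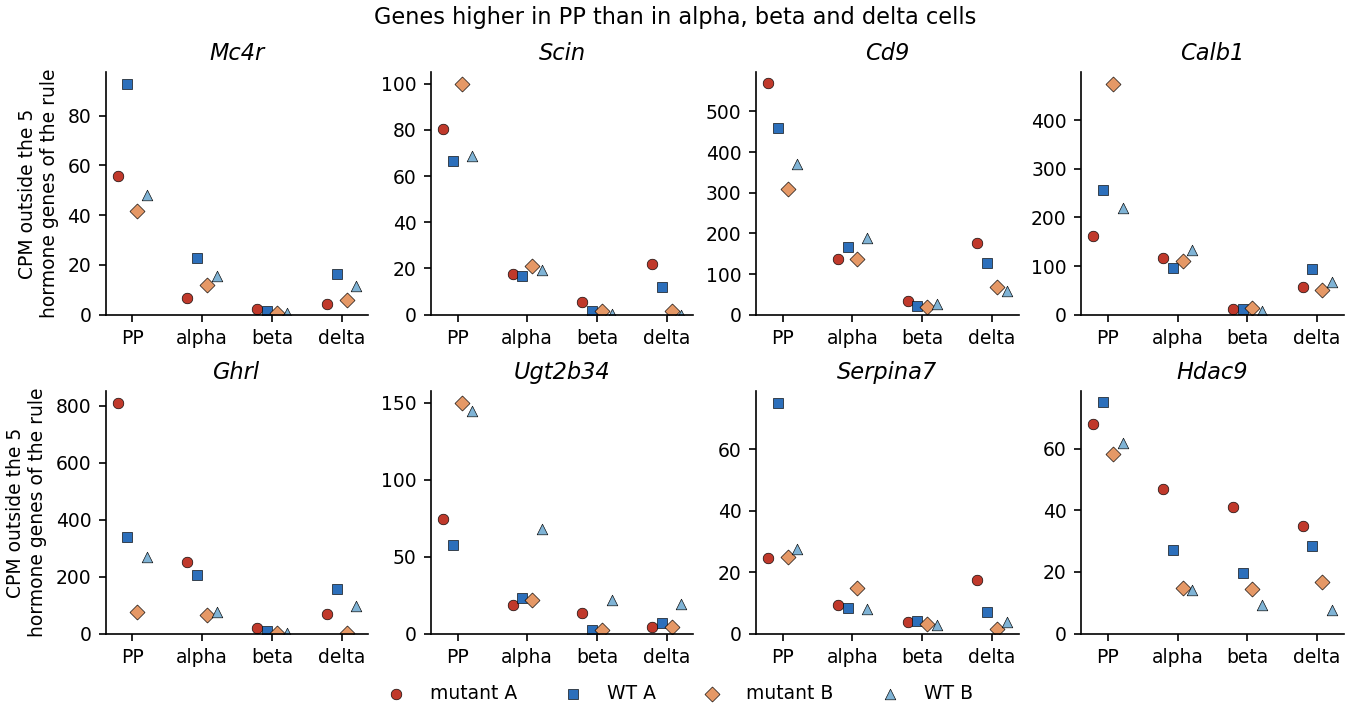
CPM outside the 5 hormone genes for 8 genes that were higher in PP than in alpha, beta and delta cells, with 1 point per library and class. Cd9 in PP cells lies at 308 to 569 CPM, above the 189 CPM of the highest other sum.

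The other genes named on the higher side were Rgs7bp, Rcn3, Serpina7, Ugt2b34 and Hdac9, whose smallest log2 differences lay between 1.55 and 2.71, and 4 genes described below with Pyy. Beyond the 15 that the naming rule took, 15 further genes passed. Naming passed over 2 of them, as predicted or mitochondrial genes, and the other 13 were Adk, Bcl7c, Cacna2d1, Cers6, Fam222a, Hps1, Oxr1, RP23-127M7.1, Scg5, Tle1, Tm4sf4, Tox and Uchl1. These were listed after their values were seen. Rcn3 and Serpina7 lost calls without WT A, at adjusted p of 0.38 and 0.41 against alpha cells. Against the same cells, Hdac9 lost its call without WT A (0.093), Rgs7bp without mutant A (0.057) and Ugt2b34 without mutant B (0.084). Among cells with Ppy at 5% or more, Rcn3, Serpina7, Hdac9, Rgs7bp and Ugt2b34 all missed the threshold against alpha cells (0.11 to 0.54).

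Genes lower in PP cells than in all 3 classes included Dlk1, Slc38a4, Orc6, Parl, Col4a1 and Sparc, each below all 12 other sums in 4 of 4 libraries. Dlk1, an imprinted inhibitor of differentiation, had 43.3, 17.7, 58.3 and 41.3 CPM in PP cells and 306 to 630.0 CPM in delta cells (-3.97 ± 0.50 SE). Against alpha cells, at 75.3 to 482 CPM, its call ended without WT A (adjusted p = 0.23) and without mutant B (0.057). Slc38a4, an amino acid transporter, had 24.7, 8.85, 0 and 13.8 CPM in PP cells and 50.6 to 147 CPM in the other sums, and its calls held under all 15 alternatives. Slc35b3 and Sema3c had no count in any PP cell. With a floor of 3 counts over the 4 PP sums (4.59 CPM), Slc35b3 was at least 3.12-fold lower and Sema3c at least 3.35-fold lower in PP cells than in each other class. At such low counts their calls against alpha cells ended without single libraries, that of Sema3c without any of the 4 (adjusted p of 0.099, 0.13, 0.11 and 0.14) and that of Slc35b3 without WT A, mutant B or WT B (0.063, 0.052 and 0.060).

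Col4a1 and Sparc, matrix genes made mainly by stromal cells, were at 0 to 13.8 CPM and 8.33 to 17.7 CPM in PP cells. In mutant A both were high in the other classes, with 573 CPM of Sparc in alpha and 486 CPM in delta cells. Without mutant A the adjusted p of Sparc was 0.13 against beta and 0.21 against delta cells, and that of Col4a1 against delta cells was 0.18. Of 6 mesenchymal markers 1, Pdgfrb, was at 0 in the PP sums, and the list summed to 34.3, 80.0, 64.5 and 94.4 CPM of all counts in PP cells against 148 to 402 CPM in alpha cells. Of 6 endothelial markers none was at 0, and they summed to 8.06 to 50.4 CPM of all counts in PP cells against 49.1 to 434 CPM in alpha cells. Of 5 immune markers Cd74, Tyrobp and Lyz2 were at 0 in PP cells, while C1qa was called lower than in all 3 classes. That call against alpha cells (-1.41 ± 0.37 SE) ended in 7 of 15 alternatives, with DESeq2 (adjusted p = 0.0505) and without each library (0.056 to 0.24) among them, and without WT B those against beta (0.084) and delta cells (0.059) ended too. The part of RNA from other cells in these differences was not tested.

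Of 9 tested genes that cut and amidate prohormones, 2 were higher against alpha, 4 against beta and 3 against delta cells, and 1 was lower, Pcsk1 against beta cells. The median log2 differences were 0.27, 0.42 and 0.33, beside -0.09, -0.07 and -0.08 over all genes. Scg5, the chaperone of the convertase Pcsk2, had 1756, 1933, 1908 and 1417 CPM in PP cells and 1028 to 1406 CPM in the 12 other sums. Its log2 differences were 0.59 ± 0.13, 0.59 ± 0.13 and 0.57 ± 0.13 SE against alpha, beta and delta cells. Among cells with Ppy at 5% or more these differences were 0.20, 0.17 and 0.20 and none was called, and without WT A none was called either (adjusted p of 0.092, 0.061 and 0.16). Pcsk1, the convertase of proinsulin, had 24.7, 106, 33.3 and 75.7 CPM in PP cells, 11.6 to 18.8 CPM in alpha cells and 132 to 278 CPM in beta cells. Its call against alpha cells (2.10 ± 0.40 SE) ended without WT A (adjusted p = 0.13).

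Among 14 tested granins and granule proteins, 4 were higher and 1 lower against alpha cells. The median log2 difference from alpha cells was 0.61, beside -0.09 over all genes. Against beta cells 3 were higher and 4 lower, and against delta cells 3 were higher and 1 lower. Chgb, chromogranin B, had 4079.8, 5639, 9714 and 5612 CPM in PP cells and 769 to 1825 CPM in alpha cells (2.43 ± 0.18 SE, adjusted p = 3.9e-09). Vgf, a neuroendocrine peptide precursor, had 24.7, 4.42, 0 and 41.3 CPM in PP cells and 134 to 179 CPM in alpha cells (-3.10 ± 0.46 SE, and -3.90 without WT B).

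Of 15 tested receptors, 2 were higher and 1 lower in PP than in alpha cells. Against beta cells 3 were higher and 4 lower, and against delta cells 3 were higher and 1 lower. The median log2 differences were 0.60, -0.12 and 0.45 against alpha, beta and delta cells, beside -0.09, -0.07 and -0.08 over all genes. Chrm3, the muscarinic receptor through which the vagus nerve acts on islet cells, had 68.0, 75.2, 108 and 41.3 CPM in PP cells and 10.4 to 14.3 CPM in alpha cells (2.52 ± 0.35 SE, adjusted p = 3.7e-05). In beta cells it had 49.8 to 76.6 CPM, and that difference did not pass the test (0.22 ± 0.28 SE). Galr1, a galanin receptor, had 12.4, 35.4, 33.3 and 27.5 CPM in PP cells and 2.91 to 14.8 CPM in alpha cells, with the groups overlapping in the values of mutant A. Its call (2.61 ± 0.64 SE, adjusted p = 0.020) ended without WT A, mutant B or WT B (0.24, 0.092 and 0.095), and without mutant A the difference was 3.48. Sstr2, a somatostatin receptor, had 74.2, 13.3, 8.33 and 6.88 CPM in PP cells and 93.2 to 102 CPM in alpha cells. The level in mutant A stood apart from the other 3 PP sums, and without that library the log2 difference from alpha cells was -3.19 in place of -1.85. That call ended without WT A, mutant B or WT B (adjusted p of 0.10, 0.069 and 0.058). Against beta and delta cells Sstr2 was called higher in PP cells, and these calls ended in 1 and 2 alternatives.

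In the list of endoplasmic reticulum stress genes, 13 of 18 were lower in PP than in beta cells and none was higher. The median log2 difference was -1.26, beside -0.07 over all genes. Hspa5, the main chaperone of that compartment, had 853, 986, 1458 and 1121 CPM in PP cells and 2985 to 4534 CPM in beta cells (-1.78 ± 0.13 SE). Against alpha cells 1 of the 18 was higher, Dnajb9 (0.73 ± 0.21 SE, adjusted p = 0.049), and none lower, and that call ended in 10 of 15 alternatives, without each library among them (adjusted p of 0.059 to 0.18). Against delta cells 2 were lower, Hspa5 and Herpud1. The call of Herpud1 against delta cells ended without WT A (0.15), and that of Hspa5 without WT A (0.091) and without mutant B (0.071). Of 16 immediate early genes 8 were higher in PP than in beta cells, with a median log2 difference of 0.55, beside -0.07 over all genes. Against alpha cells 1 was higher, Btg2, and 1 lower, Klf2, and 0 of 16 were called in either direction against delta cells. The call of Btg2 against alpha cells ended without WT A, mutant B or WT B (adjusted p of 0.12, 0.16 and 0.15), and that of Klf2 without mutant A or WT A (0.077 and 0.092).

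Of 16 cell cycle genes, 5 were higher in PP than in delta cells, and none was called against alpha cells. Against beta cells 1 was lower, Pcna, and none higher. The median log2 difference was 1.17 from delta and -0.01 from alpha cells, beside -0.08 and -0.09 over all genes. The levels differed between PP libraries: Ube2c, a cell division enzyme, had 334, 8.85, 108 and 199 CPM in PP cells and 0, 28.3, 33.4 and 11.7 CPM in delta cells. Its call against delta cells (2.82 ± 0.60 SE) ended without mutant A (adjusted p = 0.13). After thinning to 2000 counts, 3 of 18, 0 of 24, 1 of 24 and 7 of 21 PP cells held at least 2 counts over 8 cell division markers. The 0 of 24 in WT A allows a share of up to 12.5%, with the same limit of 3 cells. Without thinning, 9, 5, 2 and 9 PP cells met that limit. Over all libraries 12.6% of thinned PP cells met it, against 12.4% of alpha, 4.84% of delta and 16.4% of beta cells. The libraries were split: PP cells were at 16.7%, 0%, 4.17% and 33.3%, against 2.94%, 3.57%, 6.36% and 4.17% of delta cells, so that they lay above delta cells in mutant A and WT B and below them in WT A and mutant B. Alpha cells were at 14.2%, 9.09%, 16% and 9.91% and beta cells at 15.7%, 17.3%, 18.0% and 14.3%.

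Across PP cells, Bcl7c had the highest mean over libraries of the Spearman correlation with Pyy among 2399 genes, with 0.65, 0.78, 0.03 and 0.40 in the 4 libraries. In mutant B it was below Efnb3 (0.50), Dad1 (0.34) and Rpl27a (0.31). Next were Dad1, Rpl27a, Efnb3 and Pcsk2, with mean correlations of 0.34, 0.31, 0.30 and 0.29 over the libraries. These are descriptions over cells that share a library and differ in depth. Bcl7c, which encodes a subunit of chromatin remodelling complexes, had 7368, 3658, 149.96 and 378 CPM in PP cells. Counts of Bcl7c per 1000 Pyy counts in mutant A were 56.0 in PP, 45.5 in alpha, 54.0 in beta and 54.3 in delta cells. In WT A they were 27.3, 20.5, 21.1 and 20.2, in mutant B 1.41, 2.09, 3.52 and 1.83, and in WT B 2.89, 3.74, 12.5 and 3.12. Within an A library the classes lay close together, the highest being 1.23 times the lowest in mutant A and 1.35 times in WT A, while the libraries stood far apart. In the B libraries the highest class was 2.50 and 4.32 times the lowest.

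RP23-127M7.1 had 15.8, 15.7, 19.5 and 16.04 counts per 1000 Pyy counts in PP, alpha, beta and delta cells of mutant A. Coq3, a ubiquinone synthesis enzyme, had 3.99, 2.59, 3.79 and 3.21 in the same sums. In mutant B and WT B the highest class was 2.51 and 5.20 times the lowest for RP23-127M7.1, and 2.00 and 3.92 times for Coq3. AW554918, Mrpl13 and Wdr59, among the genes that the naming rule took on the higher side, had 2571, 1366 and 334 CPM in the PP sum of mutant A and 33.3 CPM each in that of mutant B. Relative to Pyy they varied more between classes than Bcl7c did, with the highest class at 3.52, 4.34 and 5.16 times the lowest in mutant A. Without mutant A, Wdr59 was not called against delta cells (adjusted p = 0.091), and Coq3 was not called against them without mutant A (0.17) or without WT A (0.051). These genes were set against Pyy after their values were seen. In GENCODE M21 transcripts, Bcl7c, Coq3, AW554918, Mrpl13 and Wdr59 shared 0 stretches of 16 bases with Pyy on either strand. RP23-127M7.1 was not compared, nor was sequence outside the annotated transcripts. The submitters' aligner and annotation are not given, so this comparison cannot decide where reads of Pyy were counted. The source of the library-dependent ratio was not tested.

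**Figure D5:**
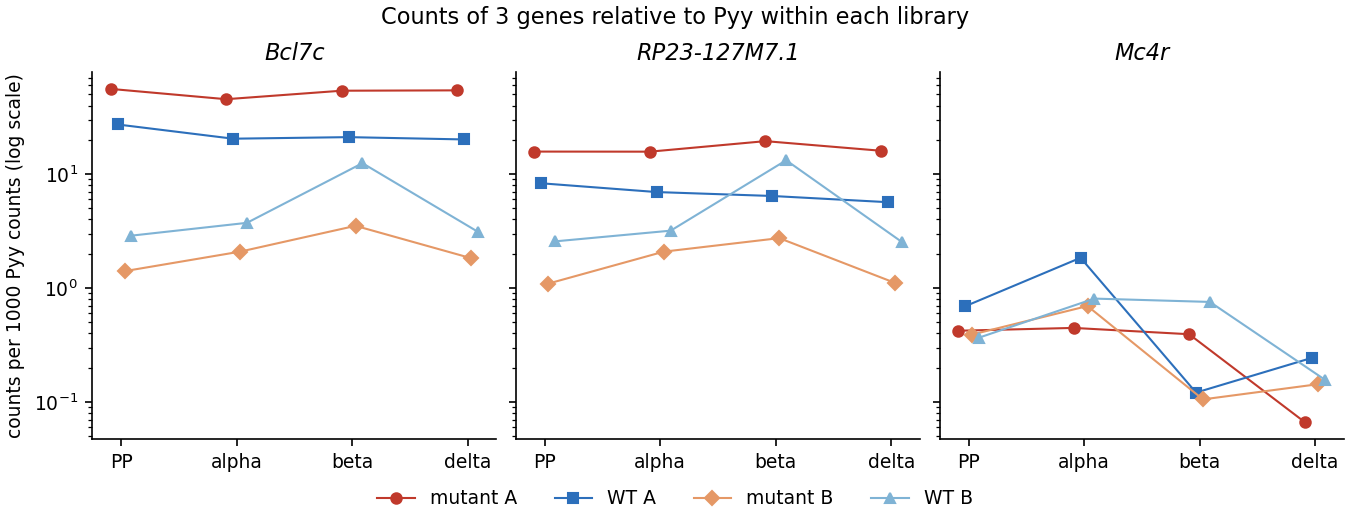
Counts of Bcl7c, RP23-127M7.1 and Mc4r per 1000 Pyy counts of the same sum (log axis), by cell class, with 1 line per library. For Bcl7c the mutant A line runs between 45.5 and 56.0 and the mutant B line between 1.41 and 3.52.

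The genotypes were compared over the PP sums of the 4 libraries, the question that the series' design names. Sin3a had 11 and 4 counts in the mutant PP sums and 10 and 8 counts in the WT PP sums, below the filter for a test. The altered part of the gene is not stated in the labels, so these 3′ tags do not check the label. PP cells made up 2.17% and 1.76% of the hormone-defined endocrine cells in mutant A and mutant B, with 95% exact binomial intervals of 1.37% to 3.27% and 1.13% to 2.60%. In WT A and WT B they made up 2.91% and 1.53%, with intervals of 1.94% to 4.18% and 0.962% to 2.31%. The means were 1.96 ± 0.293% in mutant and 2.22 ± 0.976% in WT libraries (SD, n = 2 each). Mutant minus WT was -0.256 percentage points, with p = 1 in an exact two-sided permutation test whose smallest possible p is 0.333. Mutant was lower than WT within A and higher within B.

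No gene was called between mutant and WT PP cells by edgeR's quasi-likelihood test: 0 higher and 0 lower of 3169 tested (0% in each direction). At an unadjusted p under 0.05, 8 were higher (0.252%) and 5 lower (0.158%), and with DESeq2 there were 0 adjusted calls and 1 and 1 unadjusted. On simulated counts for this comparison, edgeR's test recovered 0 of 67 genes set to a 2-fold difference. It recovered 4 of 67 at 4-fold and 34 of 66 at 8-fold. The lack of calls therefore does not show that differences of such size are absent. Pyy had a log2 difference of -0.13 ± 0.59 SE, with 21302 and 12782 counts in mutant and 30321 and 19054 counts in WT libraries.

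The genes of smallest unadjusted p, with all adjusted p at 0.999, were Kdm5a, Akap9, Fmn2, Arfip1 and Tbl2 on the higher side. Kdm5a, a histone demethylase, had 22 and 12 counts in mutant A and B against 2 and 6 counts in WT A and B (log2 2.35 ± 0.84 SE). Akap9 had 17 and 15 counts in mutant against 7 and 5 counts in WT libraries. On the lower side were Tmem14c, Tmem106c, Dpy30, C2cd4b and Rilpl2. Tmem14c, a mitochondrial membrane protein, had 7 and 3 counts in mutant against 26 and 18 counts in WT libraries (-1.72 ± 0.70 SE). Dpy30, a subunit shared by histone H3K4 methyltransferases, had 7 and 3 counts in mutant against 30 and 14 counts in WT libraries. None of these 10 genes, chosen by their p, passed the correction.

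The genotype difference was also compared with that of alpha cells. Of 8964 genes, 0 differed on the higher side (0%) and 3 on the lower side (0.0335%), at adjusted p under 0.05, with 117 (1.31%) and 177 (1.97%) at unadjusted p under 0.05. All 3 were hemoglobin genes, Hbb-bs, Hbb-bt and Hba-a2, and 598 of the 603 hemoglobin counts in the PP cells of WT B lay in 1 cell.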

How the data were processed

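The authors deposited whole-number counts per gene and barcode for 4 inDrop libraries, not normalized. Per the submitters' processing notes, builds GRCh38 and GRCm38 were named, with aligner, annotation and counting program not given in the sources used here. Only mouse features were used (38457, with 2 others left out). Counts were summed per library and class after removal of Ppy, Gcg, Sst, Ins1 and Ins2 from class comparisons, so that the library is the unit. Genotype p-values rest on the spread between libraries of the same genotype. Class p-values rest on how class differences vary between libraries, with all 4 classes in the fit. edgeR 4.0.16 (R 4.3.3) gave quasi-likelihood F tests with TMM factors, its filter on low counts and Benjamini-Hochberg adjustment at 0.05, for PP, alpha, beta and delta sums in 1 fit with library as block, and for genotype over PP sums. The SE is the absolute log2 difference divided by the square root of F. DESeq2 1.42.0, other scalings, filters, memberships and left-out libraries were alternatives. Scrublet (scanpy 1.11.5) called doublets, which stayed in. Intervals and floors cover counting error only.

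Genes named in the text are Sin3a, Pyy, up to 15 per direction called against all 3 classes (ranked by the smallest log2 difference), the 5 of smallest p per direction for genotype, the 5 most correlated with Pyy, and up to 4 members of each of 26 gene lists. Other list members named were chosen after their values were seen. Members and lists were chosen with earlier results of these data known. The scripts were checked on simulated counts. Some genes are not reported here.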

Additional observations from a re-analysis of the deposited data

Results flagged for a closer look

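The genotype difference (mutant minus WT) was lower in PP than in alpha cells for 3 genes by a test of the difference itself: Hbb-bs (log2 -11.45 ± 1.35 SE, adjusted p = 2.5e-11), Hba-a2 (-9.19 ± 2.04 SE, adjusted p = 0.032) and Hbb-bt (-5.49 ± 1.05 SE, adjusted p = 0.0017). These genes encode hemoglobin chains. Hbb-bs had 0 and 0 counts in the PP cells of mutant A and mutant B, against 0 and 425 counts in those of WT A and WT B. In alpha cells it had 3 and 388 counts in mutant A and mutant B, against 9 and 1352 counts in WT A and WT B. Of the 603 hemoglobin counts in WT B PP cells, 598 lay in 1 cell. Without cells in which hemoglobin reached 1% of counts 0 genes were called, and likewise without WT B.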

How the results depend on the processing

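For genes named in the class comparisons, 3495 results kept direction and call under an alternative, 477 kept direction but missed the threshold, 3 newly passed (Pyy against delta cells) and 0 turned. Of the 477, 102 came from the membership with Ppy at 5% or more, under which 164 kept direction and call. That membership left 41 of 96 PP cells, with 4 in mutant B. The causes were not tested.

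Against alpha cells, 196 genes higher became 332 with DESeq2, 76 among cells with Ppy at 5% or more, and 83 to 161 when leaving out a library (83 without WT A, 122 without mutant A). The 170 lower became 78 to 120 (78 without WT A, 97 without mutant A, 97 without mutant B). Against beta cells, 569 higher became 239 at Ppy of 5% or more and 366 to 454 without a library (366 without WT A), and 774 lower became 1180 in a fit of the 2 classes alone. Against delta cells, 134 higher became 218 with DESeq2, 237 with no filter on low counts, 54 at Ppy of 5% or more and 86 to 97 without a library (86 without WT A). The 202 lower became 116 to 155 (116 without mutant B, 133 without WT B).

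Between mutant and WT PP cells, 0 to 1 genes were higher and 0 to 8 lower without a library (1 and 3 without WT A, 8 lower without mutant A), and 3 were lower with no filter. With the title number as replicate block, 0 and 0 were called (11 and 8 at unadjusted p under 0.05). Over 3174 genes, the A minus B difference of the mutant PP sums correlated at 0.194 with that of the WT PP sums. The numbers were not taken as pairing in the main fit. The genotype difference of PP against alpha cells, in alternatives chosen after seeing the data, gave 0 to 2 higher (2 without mutant B) and 0 to 5 lower (5 without WT A, 1 without mutant B, 0 without WT B), and 0 lower without hemoglobin-rich cells. The PP share, mutant minus WT, was 0.0454 percentage points at Ppy of 5% or more and -0.946 to 0.433 without a library (0.433 without WT A). PP sums of the same genotype differed by more than counting noise, the chi-square divided by its degrees of freedom being 8.22 for mutant and 6.13 for WT libraries.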
